A study of Homo sapiens with 12 samples.

Results

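Of 63086 genes in the deposited table, 10 are the heat shock genes described here: HSP90AA1, HSP90AB1, HSPA1A, HSPA1B, HSPA8, HSPH1, DNAJB1, HSPB1, HSPD1 and HSF1. They were chosen by gene symbol. RNA was sequenced from 4 lines of MIA PaCa-2, a human pancreatic carcinoma cell line, with 3 biological replicates each and 12 libraries in all. The comparison asks which transcripts depend on TIMP1, a secreted inhibitor of metalloproteinases. WT is the unmodified line. CRISPR Control went through editing and carries a silent point mutation only. TIMP1 KO 1 and TIMP1 KO 2 are knockout lines made with CRISPR/Cas9 aimed at exon 4 of TIMP1. All 4 lines grew in RPMI 1640 with fetal calf serum, and the labels name no heat or drug treatment. Each KO line is 1 clone, so that the loss of TIMP1 and whatever else sets a clone apart cannot be told apart. WT and CRISPR Control are called competent below, and the KO lines deficient.

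Heat shock proteins are molecular chaperones, which bind unfolded or immature proteins and let them fold with the use of ATP. In the cytosol, HSP70 takes up a client that a J-domain protein delivers, an HSP110 protein such as HSPH1 helps exchange the nucleotide, and HSP90 finishes the maturation of many kinases and steroid receptors. HSF1, the heat shock factor, binds repeats of the letters GAA in the promoters of many of these genes and raises their transcription under heat or proteotoxic stress. The label cytosolic suits most of the set. It does not suit HSPD1, the chaperonin of the mitochondrial matrix, and HSF1 is a transcription factor and no chaperone.

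The promoters show the letters that HSF1 is known to bind. In the RefSeq windows of 250 bases before each listed start (GRCh38.p14), the 3-unit form, GAA NN TTC NN GAA or its other strand TTC NN GAA NN TTC, stood in 0.441% of 35116 windows of all genes. The shorter 2-unit form, GAA NN TTC or TTC NN GAA (each its own reverse complement), which lies inside the longer one, stood in 11.6%. The table held 15 windows for 9 members. The shares of all genes are per window, while a member counts where any of its windows matched. HSP90AA1, HSP90AB1, HSPD1 and DNAJB1 each also had a window without a match. The 3-unit form was found for HSP90AA1, HSP90AB1, HSPA8 and HSPD1, and the 2-unit form alone for DNAJB1, HSPA1A, HSPA1B and HSPB1. Neither was found in the HSPH1 window. A match describes letters and is no measured binding site. The lines below run 5′ to 3′ on the strand of the gene, with the matching letters in capitals, and are shown because they include members that fell in the deficient lines and DNAJB1, which rose. They lie at chr14:102087090-102087162 (minus strand, HSP90AA1), chr6:44247801-44247873 (plus, HSP90AB1), chr11:123062149-123062221 (minus, HSPA8), chr2:197500038-197500090 (minus, HSPD1), chr19:14518407-14518474 (minus, DNAJB1) and chr6:31815407-31815474 (plus, HSPA1A).
HSP90AA1: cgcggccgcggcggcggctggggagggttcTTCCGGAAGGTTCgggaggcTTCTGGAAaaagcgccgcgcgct
HSP90AB1: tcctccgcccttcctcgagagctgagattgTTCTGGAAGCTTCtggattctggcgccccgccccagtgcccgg
HSPA8: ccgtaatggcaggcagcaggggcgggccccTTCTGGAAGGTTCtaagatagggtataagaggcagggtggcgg
HSPD1: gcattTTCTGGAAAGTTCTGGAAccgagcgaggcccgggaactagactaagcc
DNAJB1: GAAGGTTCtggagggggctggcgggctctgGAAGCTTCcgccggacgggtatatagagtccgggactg
HSPA1A: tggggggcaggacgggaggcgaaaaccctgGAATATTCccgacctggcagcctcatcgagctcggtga

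Depth ran from 26908701 to 36093563 reads in genes per library. TIMP1 itself, the target of the edit, was read at 3837, 3290.2 and 3532 normalised counts in WT and at 2285, 2826 and 2959 in CRISPR Control. Values of 1562, 1624 and 1613 (KO 1) and 1136, 1192 and 1155 (KO 2) followed, so all 6 deficient libraries lay below all 6 competent ones while transcript was still read. The mitochondrial share of reads moved with the lines, from 0.542 to 0.583% (CRISPR Control) and 0.671 to 0.712% (WT) to 0.770 to 0.937% (KO 1) and 0.872 to 1.16% (KO 2). Summed normalised counts of 12 immediate early genes, which respond to handling and growth signals, did too, with 13146 to 15448 (CRISPR Control), 17486 to 18399 (WT), 20715 to 21929 (KO 1) and 23104 to 26413 (KO 2). The order does not hold gene by gene. Of 11 tested as described below, CRISPR Control had 4 called higher and 5 lower than WT, beside 27.2% and 26.3% of all genes. Between deficient and competent lines 9 were called higher and 1, IER2, lower, beside 32.9% and 33.0%. Of 12 markers of leukocytes, endothelium, red cells, acini and islets, HBB and INS were at 0 in every library and only CD14 passed the filter on low values. Their sum was 58.9 to 69.1 in the competent libraries, 79.5 to 108 in KO 1 and 187 to 208 in KO 2. The 6 carcinoma markers were read in every library, at a sum of 107503 to 135643 in CRISPR Control and 250115 to 315239 in the other lines. They did not move together. Between deficient and competent lines KRT8, KRT18, KRT19 and VIM were called higher and CDH1 and EPCAM lower, beside 32.9% and 33.0%. In KO 2 against WT, KRT19 was called higher and KRT8, KRT18, CDH1 and EPCAM lower, beside 27.1% and 27.9%. The part of these shifts in the results below was not tested. In RNA from whole cultures, fewer cells making a transcript and less of it per cell cannot be told apart.

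The heat shock genes took a smaller share of all reads in both deficient lines. Together the 10 members took 1.11% ± 0.0374 (SD, n = 3) of all reads (CRISPR Control), 0.965% ± 0.0169 (WT), 0.784% ± 0.00558 (KO 1) and 0.726% ± 0.0169 (KO 2). The 4 ranges did not overlap. Normalised counts are read counts divided by a size factor of each library, and a gene was tested with limma where its mean was at least 10. This kept 15987 genes and 8 members, and left out HSPA1A and HSPA1B. An adjusted p under 0.05 over all genes tested counts as called. All 8 tested members differed somewhere among the 4 lines, where 80.4% of all genes did, so that being called says little by itself.

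**Figure D1:**
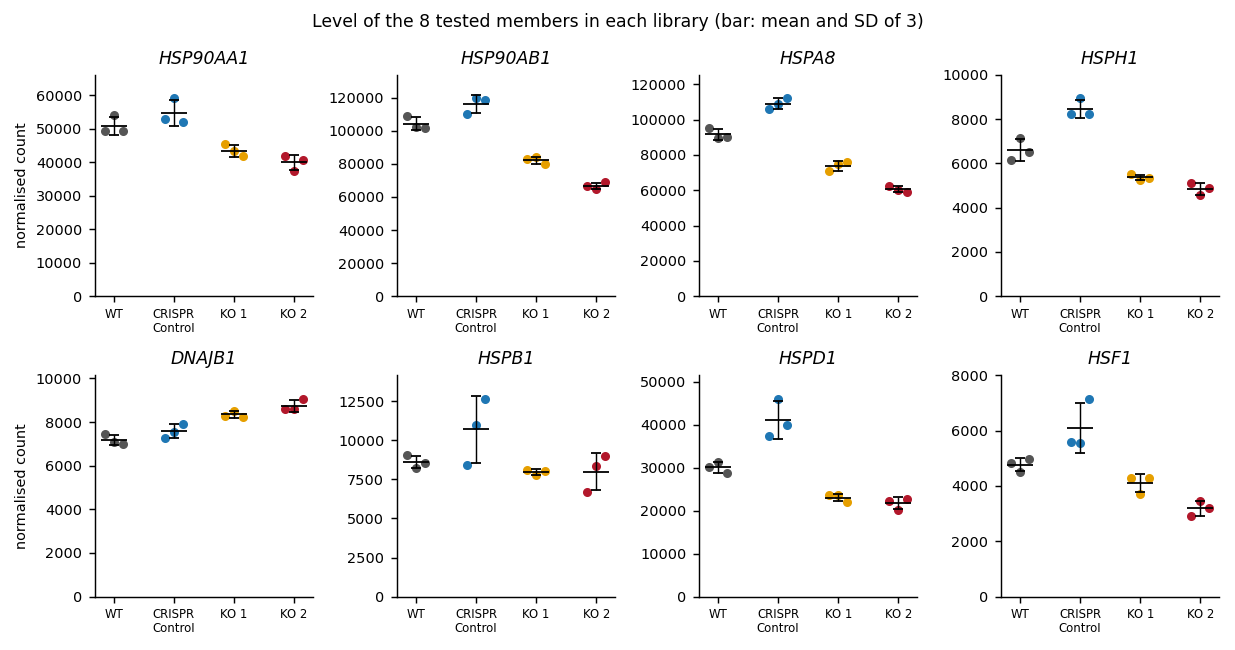
Normalised count (vertical axes from 0) of the 8 tested members in each of the 12 libraries, by line, with a bar at the mean and whiskers of 1 SD (n = 3). CRISPR Control is the highest line for every member but DNAJB1, and the means of the KO lines are the lowest for every member but DNAJB1, whose 6 deficient libraries lie above all 6 competent ones.

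Averaged over lines, 7 of the 8 tested members were lower in the deficient than in the competent lines, and DNAJB1 alone was higher. Of all genes tested, 33.0% were called lower and 32.9% higher in this comparison. The median log2 fold change of the 8 members was -0.56, beside 0.0023 over all genes tested. Their changes were not large among these lines: 30.2% of the genes tested changed by at least as much as HSPA8, 26.4% by as much as HSPD1 and 67.1% by as much as DNAJB1. In 6 members every deficient library lay below every competent one, which 12.4% of genes tested did, and in DNAJB1 every one lay above, which 12.3% did. HSPB1 was the member whose libraries overlapped.

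HSP90AA1 and HSP90AB1 encode the inducible and the constitutive cytosolic HSP90. HSP90AA1 (ENSG00000080824, GRCh38 chr14:102080742-102139699, minus strand, 11 exons) overlaps WDR20 on the other strand. It was read at 49409, 54118 and 49239.8 (WT), 52889, 59146 and 52013 (CRISPR Control), 45439.8, 43250.0 and 41815 (KO 1) and 41828, 37401 and 40756 (KO 2). The competent lines overlapped each other, the KO lines barely overlapped, and the deficient libraries all lay below. Against WT the log2 fold change was -0.23 ± 0.077 (SE, adjusted p = 0.0283) in KO 1 and -0.35 ± 0.077 (adjusted p = 0.00086) in KO 2. The KO 1 call is a narrow one, since the adjusted p was 0.127 without WT replicate 2, 0.0788 without KO 1 replicate 2, 0.111 without KO 1 replicate 3 and 0.0979 with no filter on low values.

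HSP90AB1 (ENSG00000096384, chr6:44246166-44253888, plus strand, 12 exons) fell further. Its normalised counts were 108730.1, 102404 and 101398 (WT), 110143, 119578 and 118826 (CRISPR Control), 82734, 83936 and 79974 (KO 1) and 66563, 65076 and 68776 (KO 2). No 2 lines overlapped. KO 1 stood at -0.34 ± 0.073 against WT (adjusted p = 0.00129) and KO 2 at -0.64 ± 0.073 (adjusted p = 6.21e-07), and KO 2 was lower than KO 1 by a log2 difference of -0.30 (adjusted p = 0.00327). CRISPR Control exceeded WT by 0.16, which missed the threshold (adjusted p = 0.0801), and passed it without CRISPR Control replicate 1 (0.0272) or with DESeq2 (0.0182). Per kb of transcript, HSP90AB1 was the more abundant paralog in each line. The ratio of HSP90AB1 to HSP90AA1, per length and within a library, went from 2.69 ± 0.174 (SD, n = 3, CRISPR Control) and 2.59 ± 0.195 (WT) to 2.39 ± 0.0793 (KO 1) and 2.11 ± 0.0952 (KO 2). The ratios of KO 2 lay below those of every other line. These ratios carry no test.

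HSPA8, the constitutive HSP70 (ENSG00000109971, chr11:123057489-123063230, minus strand, 9 exons, with 3 small nucleolar RNA genes inside), differed at each step between the lines. WT libraries held 95278, 89429.9 and 90131 normalised counts, and CRISPR Control libraries held 105895, 108960.4 and 112085. In KO 1 the values were 70802, 74857 and 75961, and in KO 2 they were 62559.9, 60301 and 59035. No pair of lines overlapped, and each neighbour in the order CRISPR Control, WT, KO 1, KO 2 differed from the next. The steps were 0.25 ± 0.072 for CRISPR Control above WT (adjusted p = 0.00677), -0.31 ± 0.072 for KO 1 against WT (adjusted p = 0.00233) and -0.28 for KO 2 against KO 1 (adjusted p = 0.00412). HSPA8 and HSP90AB1 were the most abundant members per kb of transcript, with 40465 ± 1410.5 and 40774 ± 1556 normalised counts per kb in WT, which do not differ beyond their spread.

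HSPH1, the HSP110 that exchanges nucleotide on HSP70 (ENSG00000120694, chr13:31134973-31162388, minus strand, 18 exons), followed the same order at a lower level of 1262 ± 95.5 normalised counts per kb in WT. WT held 6158, 7151 and 6539.9 normalised counts, CRISPR Control 8224, 8944 and 8214, KO 1 5514, 5269 and 5329 and KO 2 5104, 4553 and 4897. CRISPR Control lay above, and both KO lines below, every WT library. The log2 fold change against WT was 0.36 ± 0.072 in CRISPR Control (adjusted p = 0.000382), -0.30 ± 0.072 in KO 1 (adjusted p = 0.00304) and -0.45 ± 0.072 in KO 2 (adjusted p = 3.45e-05). The KO lines did not overlap, yet their difference of -0.15 missed the threshold (adjusted p = 0.112).

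HSPA1A and HSPA1B, the classical heat-inducible HSP70 genes, were close to unread. HSPA1A (ENSG00000204389, chr6:31815543-31817946, plus strand, 1 exon) had 0 reads in all 6 competent libraries, 1, 0 and 1 in KO 1 and 0, 1 and 0 in KO 2. HSPA1B (ENSG00000204388, chr6:31827738-31830254, plus strand, 1 exon) had 0, 1 and 0 reads in WT, 0 in each CRISPR Control library, 0, 1 and 3 in KO 1 and 3, 0 and 0 in KO 2. No library passed the floor of 3 reads, the limit that a count of 0 allows, so no fold is given, and their sum also stayed under the filter. Their coding sequences of 1923 bases are 99.8% identical. The HSPA1A base, its position from the first base of the start codon and the HSPA1B base are G1710T, G1860C, C1905T and A1920G, each at the end of a codon. The last 49 coding bases, at chr6:31817631-31817679 for HSPA1A and chr6:31829825-31829873 for HSPA1B, are shown because they hold the last pair of differences, which are in capitals.
HSPA1A: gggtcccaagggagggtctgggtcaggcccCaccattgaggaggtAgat
HSPA1B: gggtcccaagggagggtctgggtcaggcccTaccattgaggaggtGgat

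A read from such a stretch can match both genes. Of all stretches of 150 bases in the transcripts, 69.6% of those of HSPA1A and 70.1% of those of HSPA1B also occur in another gene, and at most 0.048% of those of any other member. HSPA1B also overlaps the lncRNA gene ENSG00000285565 on the same strand, which was at 0 in every library. The setting for reads with several matches is not given in the sources used here, and its part in the low values was not tested. Genes beside the pair were read. Of 19 protein-coding genes within 100 kb, 7 had a mean normalised count of at least 100, CLIC1 at 16787 and VARS1 at 10924 among them, while HSPA1L, the testis-enriched HSP70 next to HSPA1A, had a mean of 13.5.

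DNAJB1, the J-domain protein that delivers clients to HSP70 (ENSG00000132002, chr19:14514769-14560391, minus strand, 3 exons), rose in both KO lines. It overlaps TECR and MIR639 on the other strand. Its normalised counts were 7457, 7104 and 6995 (WT), 7285, 7557 and 7914 (CRISPR Control), 8292, 8517 and 8240.1 (KO 1) and 8584, 8586 and 9077 (KO 2). The competent lines overlapped, and every KO library lay above them. Against WT, KO 1 was higher by 0.22 ± 0.063 (adjusted p = 0.011) and KO 2 by 0.28 ± 0.063 (adjusted p = 0.000821). The KO 1 call was lost without WT replicate 3 (0.0554) or KO 1 replicate 2 (0.0507). Against CRISPR Control, KO 2 was higher by 0.21 (adjusted p = 0.00709) and the KO 1 difference of 0.14 missed the threshold (adjusted p = 0.0607), with a call in 5 of 24 alternatives, among them the one without CRISPR Control replicate 3 (0.0362). Within a library the ratio of HSPA8 to DNAJB1, per length, went from 14.2 ± 0.190 (SD, n = 3, CRISPR Control) and 12.6 ± 0.148 (WT) to 8.76 ± 0.340 (KO 1) and 6.87 ± 0.395 (KO 2). None of the 4 ranges overlapped, and a ratio taken within a library does not depend on the scaling between libraries. Since HSPA8 fell and DNAJB1 rose in the KO lines, a lower ratio there follows from their separate values. The ratio of HSPA8 to HSPH1, per length, was 29.9 ± 1.69 (SD, n = 3, CRISPR Control), 32.2 ± 3.45 (WT), 31.9 ± 1.86 (KO 1) and 29.0 ± 1.47 (KO 2), and its ranges overlapped. No ratio was tested.

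HSPB1, the small heat shock protein that holds unfolded clients without ATP (ENSG00000106211, chr7:76302673-76304295, plus strand, 3 exons), was the least settled. It was read at 9049, 8265 and 8529 (WT), 8449, 11006 and 12681 (CRISPR Control), 8121, 7768 and 8027 (KO 1) and 6687, 8346 and 8993 (KO 2). The CRISPR Control libraries spread over the values of WT and above, and KO 2 spread over WT as well. KO 1 and KO 2 stood at -0.11 ± 0.117 (adjusted p = 0.499) and -0.12 ± 0.117 (adjusted p = 0.422) against WT. CRISPR Control was higher than WT by 0.30 ± 0.117 (adjusted p = 0.041), a call kept in 12 of 24 alternatives. It was lost, with values from 0.16 to 0.33, without CRISPR Control replicate 3 (0.236), CRISPR Control replicate 2 (0.105), WT replicate 1 (0.0528), WT replicate 2 (0.112), WT replicate 3 (0.0939), any 1 of the KO 1 replicates (0.0514, 0.0503 and 0.0509) or KO 2 replicate 2 (0.0505), and also with no filter (0.079), with eBayes without a trend (0.118) and with only the libraries of the lines compared (0.0589). Deficient against competent lines, HSPB1 fell by 0.26 ± 0.083 on the log2 scale (adjusted p = 0.00979), and with quantile normalization the change was -0.17 (adjusted p = 0.0666).

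HSPD1, the mitochondrial chaperonin (ENSG00000144381, chr2:197486584-197516737, minus strand, 12 exons), had the largest change of the members between deficient and competent lines, -0.65 ± 0.057 (adjusted p = 9.1e-09). WT held 30032, 31317 and 28764 normalised counts, CRISPR Control 37363, 46061 and 39836, KO 1 23519, 23515 and 22030.5 and KO 2 22241, 20174 and 22785. CRISPR Control stood above all others and the KO lines overlapped below WT. Against WT the log2 fold change was 0.45 ± 0.081 in CRISPR Control (adjusted p = 0.000135), -0.38 ± 0.081 in KO 1 (adjusted p = 0.00106) and -0.47 ± 0.081 in KO 2 (adjusted p = 7.64e-05). KO 2 against KO 1 was at -0.084 (adjusted p = 0.44). HSPE1, its co-chaperonin, lies on the other strand and overlaps it. It fell by 0.34 in KO 1 (adjusted p = 0.0103) and by 0.49 in KO 2 (adjusted p = 0.000353) and rose by 0.59 in CRISPR Control (adjusted p = 5.46e-05). The ratio of HSPD1 to HSPE1 within a library was 10.2 ± 0.520 (SD, n = 3, CRISPR Control), 11.2 ± 0.396 (WT), 10.9 ± 0.352 (KO 1) and 11.4 ± 0.453 (KO 2). CRISPR Control lay below the other lines, which overlapped. Without a stated strand setting, reads of the pair in the overlap cannot be told apart.

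**Figure D2:**
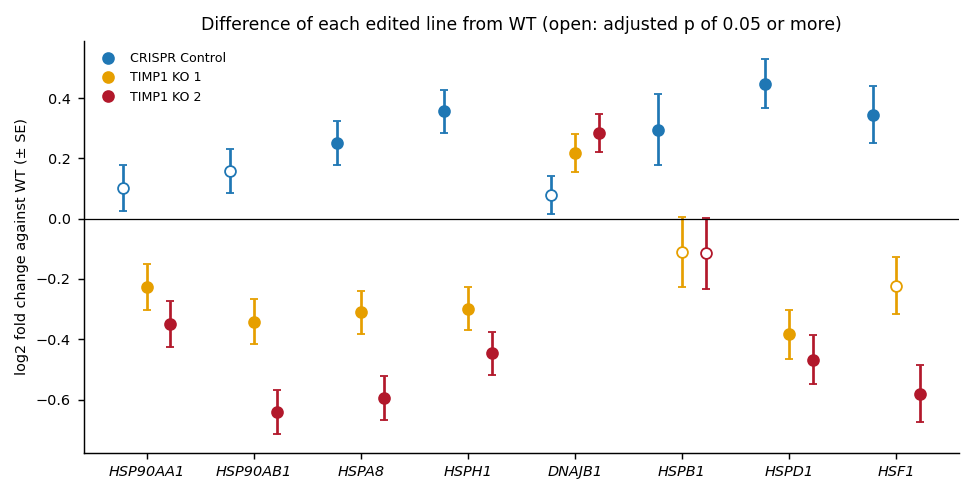
Log2 fold change against WT (vertical axis, whiskers 1 SE of the limma fit) of the 8 tested members in CRISPR Control, KO 1 and KO 2, filled where the adjusted p is under 0.05 and open where it is not. The CRISPR Control points lie above 0 for all 8 members, with those of HSP90AA1, HSP90AB1 and DNAJB1 open. The KO points lie below 0 for all but DNAJB1, with both points of HSPB1 and the KO 1 point of HSF1 open.

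HSF1, the transcription factor (ENSG00000185122, chr8:144291591-144314720, plus strand, 13 exons, overlapping DGAT1 on the other strand), had the widest range of line means of the members, 0.92 on the log2 scale. It was read at 4833, 4507 and 4961 (WT), 5573, 5554 and 7154 (CRISPR Control), 4285, 3713 and 4279.9 (KO 1) and 2921, 3452 and 3208 (KO 2). No 2 lines overlapped. CRISPR Control was above WT by 0.34 ± 0.095 (adjusted p = 0.0051) and KO 2 was at -0.58 ± 0.095 (adjusted p = 4.45e-05). KO 1 was at -0.22 ± 0.095 (adjusted p = 0.0773), and passed the threshold without CRISPR Control replicate 3 (0.0294) or with only the libraries of the lines compared (0.00796). KO 2 was lower than KO 1 by a log2 difference of -0.36 (adjusted p = 0.00586). Transcript of HSF1 does not show how much of the protein is active.

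By comparison, KO 1 against WT had 5 members called lower, where 17.5% of genes tested were, and DNAJB1 called higher, where 18.0% were. In KO 2 against WT, 6 were lower beside 27.9% of all genes and DNAJB1 was higher beside 27.1%. CRISPR Control had 5 members called higher than WT, beside 27.2% of genes, namely HSF1, HSPA8, HSPB1, HSPD1 and HSPH1. Because the edited control lay above WT, the KO lines differed from it by more: 7 members were called lower in KO 1, beside 31.3% of genes, and 7 lower and DNAJB1 higher in KO 2, beside 34.4% and 33.3%. The median of the 8 members was -0.26 for KO 1 and -0.46 for KO 2 against WT, and -0.53 and -0.80 against CRISPR Control. All these comparisons share libraries and are not independent of each other. HSF1, HSP90AB1 and HSPA8 were lower in KO 2 than in KO 1, beside 20.1% of genes.

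Genes that differ from WT in the same direction in both KO lines, and are not called between CRISPR Control and WT, are set apart from effects of the editing procedure in the design of the study. HSP90AA1 and HSP90AB1 met this on the lower side, as 5.18% of genes tested did, and DNAJB1 on the higher side, as 5.0% did. These memberships are narrow. HSP90AB1 no longer met the rule where CRISPR Control against WT was called, with DESeq2 or without CRISPR Control replicate 1, and the KO 1 calls that HSP90AA1 and DNAJB1 need were lost in 4 and in 2 of 24 alternatives. HSPA8, HSPH1 and HSPD1 were lower in both KO lines and failed it because CRISPR Control was called higher than WT.

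The rest of the chaperone network was read from lists. Of 86 listed genes in 9 groups, 83 were tested. Between deficient and competent lines 51 were called lower and 12 higher, beside 33.0% and 32.9% of all genes, with a median log2 fold change of -0.28. KO 1 had 31 lower and 6 higher than WT, beside 17.5% and 18.0%. KO 2 had 43 lower and 11 higher, beside 27.9% and 27.1%. CRISPR Control had 32 higher and 16 lower than WT, beside 27.2% and 26.3%. CRYAB and HSPB7 are among the genes called lower between deficient and competent lines and higher in CRISPR Control than in WT. HSPB7 is also among those lower in each KO line. Both passed the filter on low values through CRISPR Control, where they were high, so these calls are not read. These lists were chosen with earlier results of these data known.

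**Figure D3:**
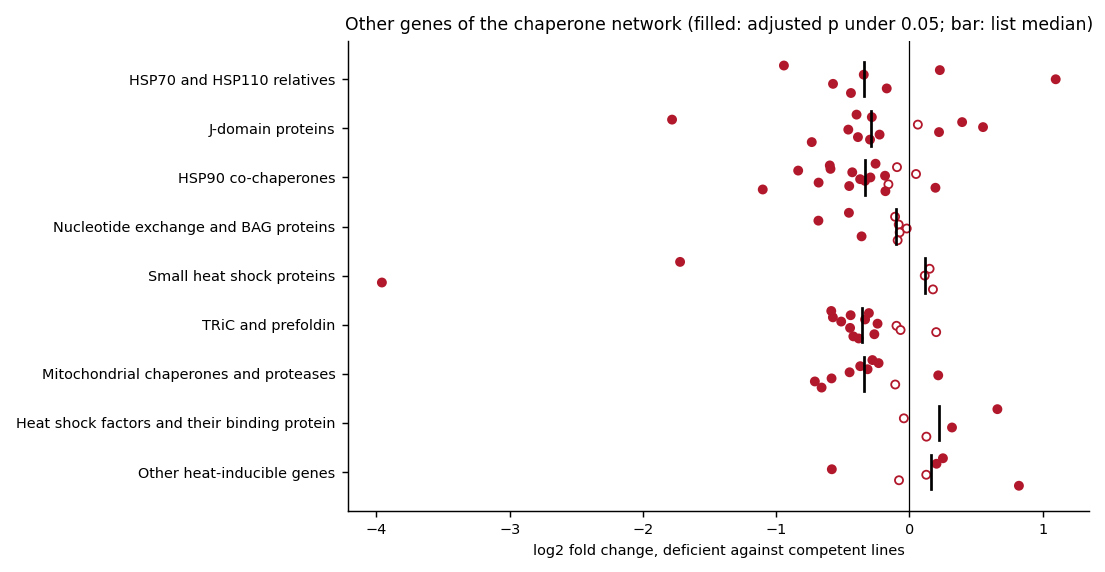
Log2 fold change of deficient against competent lines (horizontal axis) for the 83 tested genes of 9 chaperone network lists, 1 point a gene, filled where the adjusted p is under 0.05, with a bar at the list's median. Most points of the co-chaperone, TRiC and prefoldin and mitochondrial lists lie below 0, and the heat shock factor list has its 2 called genes above 0. The filled points of CRYAB and HSPB7 are not read, since both passed the filter on low values through CRISPR Control.

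The chaperonin TRiC, which folds actin and tubulin, and prefoldin, which hands clients to it, had 11 of 14 genes called lower in the deficient lines, beside 33.0% of all genes, and 3 not called, with a median of -0.36. All 8 TRiC subunits, TCP1, CCT2, CCT3, CCT4, CCT5, CCT6A, CCT7 and CCT8, were called lower than WT in KO 1 and in KO 2, beside 17.5% and 27.9% of all genes. CCT2 changed most between deficient and competent lines, at -0.59 ± 0.046 (SE, adjusted p = 1.64e-09), and CCT5 most in KO 2 against WT, at -0.64 (adjusted p = 4.44e-07). PFDN2 was lowest in KO 1 at -0.42 (adjusted p = 0.00405), and VBP1 rose most in CRISPR Control, by 0.63 (adjusted p = 9.38e-05).

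Among 17 HSP90 co-chaperones 13 were called lower in the deficient lines, beside 33.0% of all genes, and TOMM34 higher, beside 32.9%, with a median of -0.33. FKBP4, an immunophilin of steroid receptor complexes, fell by 1.00 in KO 2 (adjusted p = 1.83e-09), from a mean normalised count of 9341 ± 502 (SD, n = 3) in WT to 4662 ± 314. TTC4 had the largest change of the list between deficient and competent lines (-1.10, adjusted p = 0.00302) and in KO 1 against WT (-1.42, adjusted p = 0.0123), at a mean of only 35.1 ± 8.97 in WT. Without KO 1 replicate 1 its KO 1 value was -0.76 (adjusted p = 0.0764). SUGT1 rose most in CRISPR Control, by 0.56 (adjusted p = 5.89e-05).

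Of the 10 mitochondrial chaperones and proteases 8 were called lower in the deficient lines, beside 33.0% of all genes, and HSCB higher, beside 32.9%, with a median of -0.34. HSPE1 had the largest change there, at -0.71 ± 0.069 (adjusted p = 3.74e-08). TRAP1, the mitochondrial HSP90, fell most against WT in KO 1, by 0.54 (adjusted p = 3.3e-05), and in KO 2, by 0.77 (adjusted p = 1.74e-07), and HSPA9, the mitochondrial HSP70, rose most in CRISPR Control, by 0.62 (adjusted p = 1.68e-07).

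J-domain proteins were called lower between deficient and competent lines in 8 of 12 genes and higher in 3, beside 33.0% and 32.9% of all genes. Against WT, 2 were lower and 2 higher in KO 1, shares near the 17.5% and 18.0% of all genes. In KO 2, 6 were lower and 3 higher than WT, beside 27.9% and 27.1%. DNAJB4 and DNAJB14 were higher than WT in both KO lines. DNAJB6, called higher between deficient and competent lines, was lower than WT in KO 2, at -0.44 (adjusted p = 6.94e-06), and in CRISPR Control, at -0.74 (adjusted p = 9.16e-09). DNAJA4 had the largest change in the list and went against DNAJB1: mean normalised counts were 1058 ± 66.9 (SD, n = 3, CRISPR Control), 333 ± 33.7 (WT), 225 ± 22.9 (KO 1) and 131 ± 4.9 (KO 2). Its log2 fold change was -1.78 ± 0.080 (SE, adjusted p = 4.65e-13) between deficient and competent lines, and 1.67 (adjusted p = 4.77e-10) in CRISPR Control against WT. Of the 7 HSP70 and HSP110 relatives 5 were lower and 2 higher in the deficient lines, beside the same shares. HSPA2, an HSP70 best known from the testis, rose by 0.79 in KO 1 (adjusted p = 5.12e-07) and by 1.06 in KO 2 (adjusted p = 3.89e-09), while HSPA4, an HSP110, rose by 0.71 in CRISPR Control (adjusted p = 5.89e-08).

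BAG and other exchange factors were called lower in the deficient lines in 3 of 8 genes: BAG1, BAG3 and HSPBP1. This share is near the 33.0% of all genes. Against WT, 1 was called lower in KO 1, BAG3, beside 17.5% of all genes. In KO 2, 5 were called lower than WT, BAG1, BAG2, BAG3, BAG6 and HSPBP1, beside 27.9%, and none higher. BAG3, a stress-induced partner of HSP70, stood at -0.68 ± 0.052 (adjusted p = 1.21e-09) between deficient and competent lines and rose by 0.83 in CRISPR Control (adjusted p = 2.33e-08), and HSPBP1 fell most in KO 2, by 0.55 (adjusted p = 0.000198). Of 8 small heat shock proteins 5 passed the filter on low values, and CRYAB and HSPB7 passed it through CRISPR Control, where they were high, so their calls between deficient and competent lines are not read here. CRYAB had mean normalised counts of 9.87 (WT), 61.8 (CRISPR Control), 6.1 (KO 1) and 8.41 (KO 2), and was not called against WT in KO 1 (adjusted p = 0.256) or KO 2 (adjusted p = 0.497). HSPB7 had 4, 4 and 14 reads in WT, 68, 32 and 58 in CRISPR Control, and 0 or 1 in each deficient library, so no fold is given.

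Of 4 further heat shock factors and their partners 2 were called higher in the deficient lines and 2 were not called. Of 6 other heat-inducible genes 3 were called higher, 1 lower and 2 not, beside 32.9% higher and 33.0% lower of all genes. HSBP1, a small protein that binds HSF1, was higher in the deficient lines by 0.66 ± 0.056 (adjusted p = 5.49e-09), with 0.36 in KO 1 (adjusted p = 0.00154) and 0.51 in KO 2 (adjusted p = 2.25e-05) against WT. HSF2BP was also called higher, but not against WT in KO 1 (0.19, adjusted p = 0.267) or KO 2 (-0.15, adjusted p = 0.343). In CRISPR Control it was lower than WT, at -0.60 (adjusted p = 0.000805). HSF2 and HSF4 were not called between deficient and competent lines. HSF2 was lower than WT in KO 2, at -0.21 (adjusted p = 0.036), and HSF4 was lower in CRISPR Control at -0.73 (adjusted p = 0.00529). ZFAND2A, a known HSF1 target, was higher by 0.82 ± 0.061 in the deficient lines (adjusted p = 9.19e-10). Against WT it rose by 0.85 in KO 2 (adjusted p = 1.31e-07) and was not called in KO 1 (0.19, adjusted p = 0.0948). It was lower than WT in CRISPR Control, at -0.60 (adjusted p = 1.32e-05). DEDD2 and IER5 were also called higher, though against WT DEDD2 was called in KO 2 only. SERPINH1, a collagen chaperone, was lower at -0.58 (adjusted p = 1.59e-08) and rose by 0.78 in CRISPR Control against WT (adjusted p = 7.87e-08). IER5 was lowest in CRISPR Control, at -1.16 against WT (adjusted p = 6.3e-08), and was itself lower than WT in KO 2, at -0.50 (adjusted p = 0.000847). UBB, a polyubiquitin gene, rose by 0.26 in KO 1 (adjusted p = 0.0453), a call lost without WT replicate 2 or 3, KO 1 replicate 1 or 2, or KO 2 replicate 1 or 2 (adjusted p from 0.0502 to 0.173), with the replicate block (0.056), with no filter (0.0986) and with eBayes without a trend (0.118).

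Over the 4 line means, centred on the log2 scale, the genes nearest to a member were sought among 11641 others with a mean of at least 100. BCL7C, NOL11 and RBM38 lay nearest to HSF1, with root mean square differences of 0.0122, 0.0133 and 0.0197. BRIX1, TATDN2 and NOL10 lay nearest to HSPD1, at 0.0122, 0.0175 and 0.0239. CCT2, VPS37C and PINX1 lay nearest to HSPA8, at 0.0153, 0.0211 and 0.0237. Only 4 points define these profiles, and many genes can resemble them.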

How the data were processed

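The authors trimmed reads with Cutadapt, aligned them to GRCh38 with STAR, counted them per gene with featureCounts and normalised them with DESeq2. The annotation release, strand setting and treatment of reads with several matches are not given in the sources used here. The deposited values are a signal of normalised counts, raw counts over a size factor per library. They came out as whole reads in 100% of positive values (tolerance 0.01 reads), which gave the depth. Depth and floors cover counting error only. One blank row and 4 columns of line means were left out.

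Genes were tested with limma 3.58.1 (R 4.3.3) on log2(normalised count + 1), at a mean of at least 10, with 1 fit of 4 line means, eBayes with a trend, two-sided p and Benjamini-Hochberg adjustment over all genes tested. Fold changes are on that scale. Tests were checked on simulated data. Alternatives were edgeR 4.0.16 and DESeq2 1.42.0 on recovered reads, other pseudocounts, filters and scalings, a replicate block and each library left out. Each line is 1 line, so p-values measure the spread between its libraries, which may be technical, and not between independent edits.

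Members and lists were chosen with earlier results of these data known. Named beside the members were TIMP1, from each list the called gene with the largest change in 4 comparisons, and the nearest line profiles of the 3 members with the widest range. SERPINH1, CRYAB, DNAJB6, HSF2 and other list genes named beyond this rule were chosen after their values were seen. HSPA14 stood on 2 rows, and the one with the higher mean was used. Identifiers of the members matched GENCODE v44, which gave coordinates.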

Additional observations from a re-analysis of the deposited data

Results flagged for a closer look

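The change against WT differed between the deficient lines for 3 members, by the contrast of KO 2 against KO 1 in limma. HSP90AB1 was lower in KO 2 by a log2 difference of -0.30, HSPA8 by -0.28 and HSF1 by -0.36. In this contrast 20.1% of all genes tested were called lower. All 24 alternatives kept these 3 calls, while none of the 3 differences reaches the minimum log2 fold change of 0.5 that was tried for counts. Some alternatives, such as leaving out a WT or CRISPR Control library, change only the spread in this contrast and not the difference. TIMP1 itself was lower in KO 2 than in KO 1, at -0.46 (adjusted p = 0.000398). It was also lower in CRISPR Control than in WT, at -0.41 (adjusted p = 0.000769). In that comparison no tested member was called lower, beside 26.3% of all genes. Whether the members follow the level of TIMP1 was not tested. Groups of 3 libraries were too small for the search for single outlying libraries.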

How the results depend on the processing

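Of 1336 values of single members under alternatives, 1306 kept their side of the threshold, 19 lost the call and 11 gained it, and no called value changed sign. Leaving out a library of a line outside a comparison moves the spread but not the difference, so these values are not independent checks. A minimum absolute log2 fold change of 0.5 lowered the members called to 0 of 6 (KO 1 against WT), 3 of 7 (KO 2 against WT), 0 of 5 (CRISPR Control against WT), 4 of 7 and 5 of 8 (KO 1 and KO 2 against CRISPR Control), 0 of 3 (KO 2 against KO 1) and 5 of 8 (deficient against competent). In the same order, 2821, 5279, 4955, 6564, 7627, 3072 and 5455 of the 15987 genes tested stayed called with it. Without it, 5682, 8791, 8541, 10070, 10828, 6100 and 10535 were called. With no filter the medians took in HSPA1A and HSPA1B and were -0.40 (KO 2 against WT), 0.20 (CRISPR Control against WT), -0.45 and -0.62 (KO 1 and KO 2 against CRISPR Control), -0.22 (KO 2 against KO 1) and -0.44 (deficient against competent). Equal library totals moved them to -0.36 (KO 2 against WT), -0.69 (KO 2 against CRISPR Control), -0.032 (KO 2 against KO 1) and -0.51 (deficient), and quantile normalization to -0.35, -0.70, -0.0086 and -0.48. In the main fit the median of KO 2 against KO 1 was -0.14, so it shrank under both scalings. Normalised counts summed to 29308113 to 29731974 in KO 2 libraries and 31139706 to 32735136 in the others, so equal totals scale every KO 2 gene up. They moved the median of all genes by up to 0.11 (KO 2 against CRISPR Control). The cause of the other moves was not tested. Leaving out 1 library gave medians of -0.48 to -0.41 (KO 2 against WT), 0.19 to 0.32 (CRISPR Control against WT), -0.57 to -0.46 (KO 1 against CRISPR Control) and -0.17 to -0.089 (KO 2 against KO 1). Quantile normalization turned the median of the small heat shock proteins between deficient and competent lines to -0.068, and that of the other heat-inducible genes in KO 1 against WT to -0.071. The list alternatives were chosen after seeing the data.

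Same-numbered libraries did not deviate together (r from -0.13 to 0.16 over 18 pairs, 2 over 0.1), so the numbers do not pair them. With a replicate block 6 members were called in KO 1 and 7 in KO 2 against WT, 8 between deficient and competent lines, and no count of members called changed, while UBB in KO 1 against WT lost its call (adjusted p = 0.056).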
